A study of Mus musculus with 2 samples.

Results

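The Egr and Nr4a group of immediate early genes comprised 8 genes of the 32285 in the count tables: Egr1, Egr2, Egr3, Nr4a1, Nr4a2, Nr4a3, Ier2 and Btg2. They had been chosen for their levels in these libraries, so that every value is a description and carries no test. UMIs (unique molecular identifiers, each standing for 1 captured RNA molecule) of the 8 genes were counted in 1 control and 1 light damage single-cell library of mouse retina. The mice carried both Tgfbr2 alleles in floxed form and were functional wild types on a mixed Balb-C/CD1 background, homozygous for the L450 variant of RPE65, with both sexes in use and ages of 6 to 9 weeks. Control mice were only dark-adapted for 18 h, and light damage mice received 30 min of 5000 lux white light after the same dark period and 6 h of recovery. Retinae of 3 to 5 mice were pooled per library and dissociated with papain and collagenase at low temperature before dead cells were removed, so that the spread between mice cannot be seen and all intervals given here are 95% intervals of counting error alone.

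Immediate early genes are transcribed within minutes of a stimulus because the factors that switch them on, such as SRF with its ELK partners and CREB, are already in the cell. Egr1, Egr2 and Egr3 encode zinc finger transcription factors that bind GC-rich sites and are held back by the corepressors Nab1 and Nab2. Nr4a1, Nr4a2 and Nr4a3 encode orphan nuclear receptors that bind the NBRE motif as monomers and act without a known hormone. Ier2 encodes a short-lived nuclear protein, and Btg2 an antiproliferative protein that binds the CCR4-NOT deadenylase. In the retina such genes are known to respond to light and injury.

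The control library held 30605284 UMIs and the light damage library 54413601, of which 18.7% and 32.7% were unspliced, that is, held intron sequence. After filtering, 3669 control and 5593 light damage droplets remained, and 7 barcodes passing the UMI minimum occurred in both libraries. Rods were split by the unspliced share of a droplet's UMIs into cytoplasm-rich rods (under 20%, 2211 control and 1533 light damage droplets) and nucleus-rich rods (over 30%, 577 and 3111). Clusters whose markers fitted gave 211 and 104 cone-like, 161 and 302 RPE-like, 50 and 44 Müller-like and 12 and 40 microglia-like droplets. All 9 rod markers and all 8 cone markers were detected in their classes in both libraries, as were all Müller and microglia markers, and 1 of 7 RPE markers was at 0 in control RPE-like droplets. Light damage droplets were deeper in every class, most of all in Müller-like droplets with a median of 14414 UMIs against 2338 and in cone-like droplets with 12769 against 2497. Rod markers took 5.88% of the UMIs of the 12 control microglia-like droplets against 0.540% in light damage.

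The sexes were unevenly spread over the libraries. Of nucleus-rich rods, 69.8% in control held Xist and no UMI of 4 Y-linked genes, against 0.0643% in light damage, and 6.41% against 74.4% held Y-linked UMIs and no Xist. Sex and light damage therefore cannot be told apart in the ratios over all droplets. Ratios over droplets with Y-linked and no Xist UMIs alone, an alternative added after seeing the data, are given mainly for rods, the classes with at least 20 such droplets per library.

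In GENCODE vM21 (GRCm38) the genes lie on 8 chromosomes: Egr1 at chr18:34859823-34864984, Egr2 at chr10:67535475-67542188, Egr3 at chr14:70077203-70082614 and Nr4a1 at chr15:101254269-101274795, all on the plus strand, as is Nr4a3 at chr4:48045153-48086447, while Nr4a2 at chr2:57106830-57124003, Ier2 at chr8:84661331-84662852 and Btg2 at chr1:134075170-134079120 lie on the minus strand. Their gene models differ in how much intron they hold. Ier2 is a single exon of 1522 bases, Egr1 has 678 bases outside every annotated exon and Btg2 1208 bases in 1 intron, while Nr4a1, Nr4a2 and Nr4a3 have 17018, 13115 and 35308 bases outside exons. 

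RefSeq promoters (GRCm38.p6) were matched for 5 of the 8 genes. The stretches before the start of Nr4a1 and Btg2, which were higher in light damage in several classes, and of Nr4a2 and Nr4a3, which stayed near 0, are printed 5′ to 3′ on the gene's strand so that they can be compared, without bases that GENCODE counts as exon, and capitals mark motif matches on either strand:

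Nr4a1 (chr15:101266596-101266845, plus strand): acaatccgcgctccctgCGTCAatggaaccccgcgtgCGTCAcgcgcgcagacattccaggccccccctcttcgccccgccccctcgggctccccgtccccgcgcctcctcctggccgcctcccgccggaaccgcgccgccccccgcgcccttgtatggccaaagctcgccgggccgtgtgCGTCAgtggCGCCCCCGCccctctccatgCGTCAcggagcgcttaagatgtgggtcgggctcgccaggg

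Btg2 (chr1:134079156-134079405, minus strand): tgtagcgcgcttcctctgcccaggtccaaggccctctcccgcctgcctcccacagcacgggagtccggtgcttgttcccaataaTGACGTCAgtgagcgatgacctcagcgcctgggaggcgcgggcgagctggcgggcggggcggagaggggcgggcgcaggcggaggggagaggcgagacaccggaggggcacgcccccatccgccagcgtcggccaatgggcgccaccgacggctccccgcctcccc

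Nr4a2 (chr2:57124004-57124253, minus strand): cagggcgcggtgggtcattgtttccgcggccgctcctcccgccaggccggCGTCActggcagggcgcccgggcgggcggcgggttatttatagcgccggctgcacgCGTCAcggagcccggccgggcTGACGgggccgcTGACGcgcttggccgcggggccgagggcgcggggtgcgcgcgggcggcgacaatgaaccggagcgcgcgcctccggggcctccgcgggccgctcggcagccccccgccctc

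Nr4a3 (chr4:48045055-48045152, plus strand): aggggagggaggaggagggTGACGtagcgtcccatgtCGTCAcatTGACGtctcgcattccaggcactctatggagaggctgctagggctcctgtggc

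The motifs searched were the cAMP response element TGACGTCA (CRE), its 5-base core TGACG, which lies within it, the AP-1 site TGANTCA, the CArG box of SRF, the EGR sites GCGTGGGCG and GCGGGGGCG, and the NBRE AAAGGTCA. Among 32851 mouse promoters of 250 bases, 1.55% held the whole CRE, 17.8% the core, 6.75% the AP-1 site, 1.47% the CArG box, 0.536% and 2.57% the EGR sites and 1.34% the NBRE. Btg2 held a whole CRE 166 bases before its start. Nr4a1 and Nr4a2 each held 4 copies of the core, and 0.137% of all promoters held at least 4, while Nr4a3 held 3 in a stretch of 98 bases. The Nr4a1 stretch, which is intronic in a longer annotated transcript of the gene, also held 1 EGR site of the form GCGGGGGCG, read on the other strand 60 bases before the start. The cores were thus as many before Nr4a2 as before Nr4a1, and the windows were richer in G and C (73.2% to 80.0% in the windows of 250 bases) than the median of all promoters (52.4%).

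Over all droplets of a class, Egr1 was at least 2-fold higher in light damage in all 6 classes. In nucleus-rich rods it had 29 UMIs in control, 21.7 CPM (counts per 1000000 spliced plus ambiguous UMIs of the class, 14.5 to 31.2), and 5043 UMIs in light damage, 467 CPM (454 to 480.3). The intervals stood far apart, with a 21.5-fold ratio and a log2 ratio of 4.43 (3.90 to 5.01). In cytoplasm-rich rods it had 65 and 623 UMIs, or 8.78 CPM (6.78 to 11.2) against 111 CPM (102 to 119.7), and the log2 ratio was 3.66 (3.28 to 4.05). In cone-like droplets 11 UMIs stood against 567, or 14.9 CPM (7.44 to 26.7) against 419 CPM (385 to 455), a log2 ratio of 4.81 (3.96 to 5.82). In rods and cones alike the light damage interval lay far above that of control.

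In RPE-like droplets Egr1 had 77 UMIs, 110.4 CPM (87.1 to 138), in control already, against 1128 UMIs, 471 CPM (443 to 499), in light damage, so that its log2 ratio was only 2.09 (1.76 to 2.44). Müller-like droplets held no Egr1 UMI in control, with an upper limit of 28.0 CPM, and 279 UMIs in light damage, 732 CPM (648 to 823). Against a floor of 3 control UMIs, 22.7 CPM, this was 32.2-fold higher, and the lower limit of the log2 ratio was 4.70. Microglia-like droplets held 8 UMIs, 244 CPM (106 to 482), and in light damage 297, or 832 CPM (740.5 to 933), with the log2 ratio at 1.77 (0.77 to 2.99). In light damage the order of classes ran from microglia-like and Müller-like droplets, whose intervals overlapped, over RPE-like droplets, nucleus-rich rods and cone-like droplets, where neighbours also overlapped, to cytoplasm-rich rods, which stood apart at the lower end. In control, microglia-like and RPE-like droplets led with overlapping intervals.

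**Figure D1:**
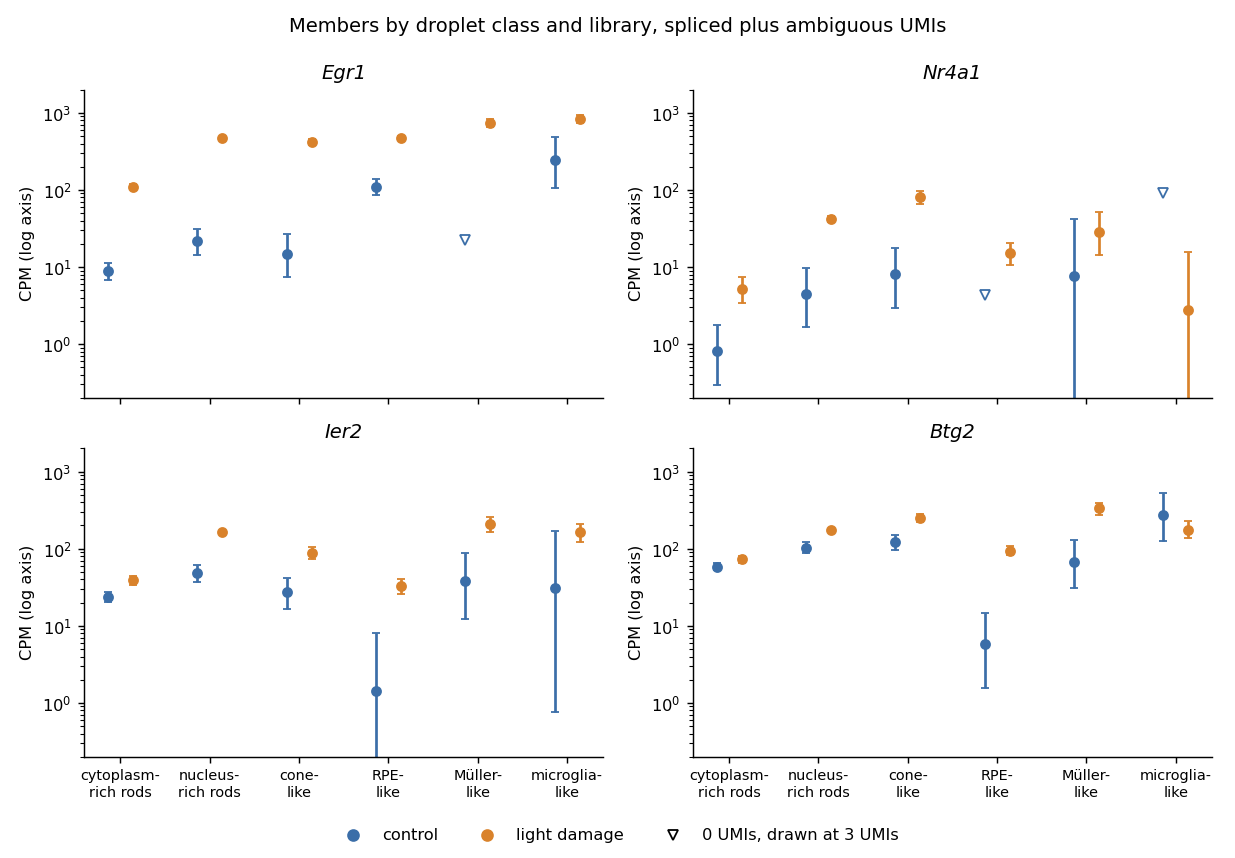
Level of Egr1, Nr4a1, Ier2 and Btg2 in CPM of spliced plus ambiguous UMIs (log axis) in 6 droplet classes of the control (blue) and light damage (orange) library; points are summed counts, bars 95% Poisson intervals (bars that reach the lower edge go on below it), and open triangles a class with 0 UMIs drawn at 3 UMIs. Egr1 in light damage runs from 111 CPM in cytoplasm-rich rods to 832 CPM in microglia-like droplets, and Btg2 in cytoplasm-rich rods differs least, with 58.5 and 72.8 CPM.

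Egr1 UMIs were also found outside cells. Barcodes under 50 UMIs, taken as free RNA, held Egr1 at 10.3 CPM (5.50 to 17.7) in control and 173 CPM (157 to 190) in light damage. The share of free RNA in each class, estimated from RPE genes, or from rod genes in RPE-like droplets, ran from 0.446% in light damage cone-like to 9.41% in control RPE-like droplets. Some estimates rested on few UMIs, such as 1 in control microglia-like droplets (1.07%) and 35 in control Müller-like droplets (9.28%). Free RNA alone would give 0.854 of the 111 CPM of Egr1 in light damage cytoplasm-rich rods and 10.7 of the 471 CPM in RPE-like droplets. In rods with Y-linked and no Xist UMIs alone, Egr1 had 0 and 237 UMIs in cytoplasm-rich and 0 and 3816 in nucleus-rich rods. The log2 ratios were 3.88 in each against a floor of 3 control UMIs, with lower limits of 3.57 and 3.58. RPE-like droplets with neither kind of UMI, 155 in control and 122 in light damage, gave 72 and 156 Egr1 UMIs and a log2 ratio of 1.41 (1.00 to 1.83), below that of the whole class. These droplets carry no sex label, so sex and light damage cannot be told apart in that ratio either. Microglia-like droplets with Y-linked and no Xist UMIs, 3 in control and 27 in light damage, gave 3 and 246 Egr1 UMIs and a log2 ratio of 0.47 (-1.09 to 2.76), under 2-fold.

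Egr2 and Egr3, which are known to be driven like Egr1 in activated neurons and lymphocytes, had few UMIs in photoreceptors. Egr3 had 0 and 3 UMIs in cytoplasm-rich rods, 0 and 2 in nucleus-rich rods and 3 and 3 in cone-like droplets, and Egr2 had 0 and 0, 1 and 11, and 0 and 1 in these classes. In the 3111 light damage nucleus-rich rods the level of Egr2 was 1.02 CPM (0.51 to 1.82). In Müller-like droplets Egr3 had 0 UMIs in control and 28 in light damage, 73.4 CPM (48.8 to 106), 3.23-fold higher against a floor of 3 control UMIs. The lower limit of its log2 ratio was 1.30. Egr2 had 0 and 11 UMIs there, under the minimum of 20 UMIs used for counts, and the lower limit of its log2 ratio was -0.20, so that no direction can be given. Those UMIs lay in few droplets, with 9 of 44 holding Egr3 and 4 of 44 holding Egr2. Without the droplet with most Egr3 UMIs, the Egr3 log2 ratio against the floor of 3 control UMIs moved from 1.69 to 1.21. Light damage microglia-like droplets held 10 UMIs of Egr2 and 6 of Egr3, or 28.0 and 16.8 CPM, and control ones none of either. The upper limit in these few control droplets was 113 CPM, above both levels, so that no direction can be given there.

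Nr4a1 was at least 2-fold higher in light damage in rods, cone-like and RPE-like droplets, and its level there was highest in cone-like droplets. In nucleus-rich rods it had 6 UMIs in control, 4.49 CPM (1.65 to 9.77), and 455 in light damage, 42.2 CPM (38.4 to 46.2), a 9.39-fold ratio with a log2 ratio of 3.23 (2.10 to 4.68). In cone-like droplets 6 UMIs stood against 109, or 8.13 CPM (2.98 to 17.7) against 80.6 CPM (66.2 to 97.2), a log2 ratio of 3.31 (2.14 to 4.79). The light damage level of cone-like droplets lay above that of nucleus-rich rods, without overlap of the intervals. Cytoplasm-rich rods had 6 and 29 UMIs, or 0.811 CPM (0.30 to 1.76) against 5.15 CPM (3.45 to 7.40), a log2 ratio of 2.67 (1.37 to 4.23). RPE-like droplets held 0 and 36 UMIs, the latter 15.02 CPM (10.5 to 20.8), 3.49-fold higher against a floor of 3 control UMIs. The lower limit of that log2 ratio was 1.43. Müller-like droplets held 1 and 11 UMIs, too few to pass the minimum used for counts. Their log2 ratio of 1.93 (-0.85 to 7.36) gave no direction. The light damage level of Müller-like droplets, 28.8 CPM (14.4 to 51.6), was not low, since its interval overlapped those of nucleus-rich rods and RPE-like droplets. Microglia-like droplets held 0 and 1 UMIs, the latter 2.80 CPM (0.071 to 15.6), although Egr1 in light damage was among the highest there. In nucleus-rich rods with Y-linked and no Xist UMIs the counts were 1 and 349, with a log2 ratio of 2.01 (-0.48 to 7.32).

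Nr4a2 and Nr4a3, the other receptors of the family, had few spliced UMIs in any class. Nr4a2 had 3 and 4 UMIs in cytoplasm-rich rods, 1 and 6 in nucleus-rich rods, 0 and 1 in cone-like, 1 and 0 in Müller-like droplets, and none in RPE-like and microglia-like droplets. Its log2 ratio in nucleus-rich rods was -0.43 (-3.47 to 5.09), an interval too wide to give a direction. Nr4a3 had no UMI in any control class, and 4, 12, 2, 2, 4 and 0 UMIs in light damage cytoplasm-rich rods, nucleus-rich rods, cone-like, RPE-like, Müller-like and microglia-like droplets. In nucleus-rich rods 3 UMIs of the shallower control library would be a level above its 12 light damage UMIs, so that a difference was not detectable at this depth.

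Ier2 was present in control rods and differed least in cytoplasm-rich ones. These held 176 UMIs in control, 23.8 CPM (20.4 to 27.6), and 219 in light damage, 38.9 CPM (33.9 to 44.4), a log2 ratio of 0.71 (0.42 to 1.00). In nucleus-rich rods 64 UMIs stood against 1769, or 47.9 CPM (36.9 to 61.1) against 164 CPM (156 to 172), a log2 ratio of 1.77 (1.42 to 2.16), and in cone-like droplets 20 against 120, a log2 ratio of 1.71 (1.02 to 2.47). The control and light damage intervals did not overlap in any of these 3 classes. RPE-like droplets held 1 UMI in control and 78 in light damage, 32.5 CPM (25.7 to 40.6), a log2 ratio of 4.50 (1.98 to 9.83). Free RNA alone would give 2.84 CPM in control RPE-like droplets, above the measured 1.43 CPM, and 10.7 CPM in light damage, and with free RNA subtracted the ratio became a bound of 2.29. In Müller-like droplets 5 UMIs stood against 80, a log2 ratio of 2.47 (1.19 to 4.13), and in microglia-like droplets 1 against 58, with 2.41 (-0.12 to 7.74).

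The Ier2 ratio of nucleus-rich rods was smaller in droplets with Y-linked and no Xist UMIs alone, with an interval that included 0. There the level was 126 CPM (67.2 to 216) from 13 UMIs in control and 152 CPM (144 to 160.4) from 1356 UMIs in light damage, a log2 ratio of 0.27 (-0.51 to 1.18). These control droplets were 37 in number and somewhat deeper than the class, with a median of 5973 against 4477 UMIs, and the part of sex and depth in the difference was not tested. Among nucleus-rich rods with neither Xist nor Y-linked UMIs, 5 Ier2 UMIs stood against 413, a log2 ratio of 3.05 (1.81 to 4.68). Droplets of this kind carry no sex label, so sex and light damage cannot be told apart in this ratio.

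Btg2 was the member with the highest control count, 433 UMIs in cytoplasm-rich rods, and the smallest differences in photoreceptors. It had 58.5 CPM (53.1 to 64.3) there in control and 72.8 CPM (65.9 to 80.2) from 410 UMIs in light damage, a log2 ratio of 0.32 (0.12 to 0.51). In nucleus-rich rods 138 UMIs stood against 1861, or 103 CPM (86.8 to 122) against 172 CPM (165 to 180.4), a log2 ratio of 0.74 (0.49 to 1.00). In cone-like droplets 89 UMIs stood against 338, a log2 ratio of 1.05 (0.71 to 1.40), which lies at the 2-fold line and was 0.84 with unspliced UMIs included. All 3 ratios had intervals above 0 and were below those of Egr1 and Nr4a1 in the same classes. In nucleus-rich rods with Y-linked and no Xist UMIs the log2 ratio of Btg2 was -0.12 (-0.77 to 0.62), from 19 and 1517 UMIs, and in cytoplasm-rich rods of that kind 0.81 (0.12 to 1.57). Rods with neither Xist nor Y-linked UMIs, whose sex is not known, gave the other order, 0.94 (0.25 to 1.71) in nucleus-rich and 0.16 (-0.08 to 0.40) in cytoplasm-rich rods.

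Outside the photoreceptors Btg2 was higher in RPE-like and Müller-like droplets. RPE-like droplets held 4 UMIs in control, 5.74 CPM (1.56 to 14.7), of which free RNA alone would give 4.18 CPM, and 226 in light damage, 94.3 CPM (82.4 to 107), a log2 ratio of 4.04 (2.66 to 5.93). Without removal of doublets this ratio was 2.30. In Müller-like droplets 9 UMIs, 68.2 CPM (31.2 to 129.5), stood against 127, 333 CPM (278 to 396), a log2 ratio of 2.29 (1.32 to 3.45). In microglia-like droplets 9 UMIs, 275 CPM (126 to 522), stood against 63, 177 CPM (136 to 226), a log2 ratio of -0.64 (-1.65 to 0.55) whose interval included 0. It was the 1 of 3 members passing the minimum there whose light damage level was not above control.

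**Figure D2:**
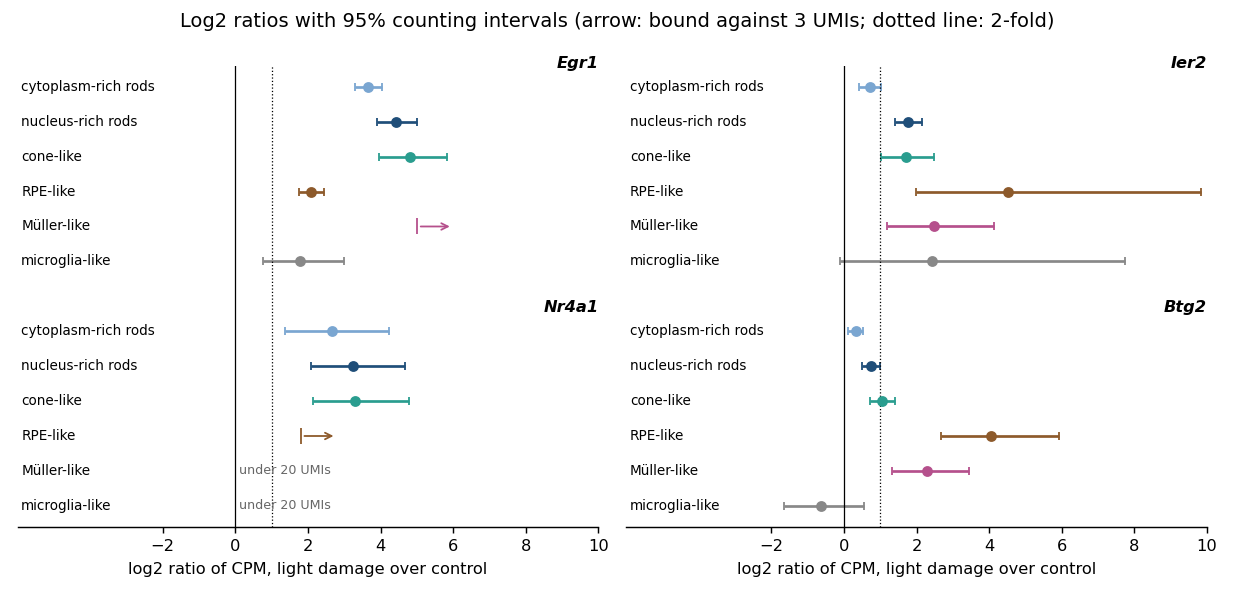
Log2 ratio of CPM, light damage over control, of Egr1 and Nr4a1 (left) and Ier2 and Btg2 (right) in 6 droplet classes; points with bars are ratios with their 95% counting interval, arrows start at the bound against 3 UMIs where control had 0, and the dotted line marks 2-fold. Egr1 lies right of the line in every class, with an interval that crosses it in microglia-like droplets alone, while Btg2 in both rod classes and microglia-like droplets and Ier2 in cytoplasm-rich rods lie left of it.

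A gene was counted as higher where its ratio reached 2-fold, among genes with at least 20 spliced plus ambiguous UMIs over both libraries in the class. In cytoplasm-rich rods 4 of the 8 members passed this minimum and 2 of them, Egr1 and Nr4a1, were at least 2-fold higher, beside 5.38% of all 9983 genes. In nucleus-rich rods 3 of 4 were higher, beside 8.93% of 12052 genes, and in cone-like droplets 4 of 4, beside 19.0% of 8947. RPE-like droplets gave 4 of 4 beside 13.5%, Müller-like droplets 4 of 4 (Egr1, Egr3, Ier2 and Btg2) beside 24.3% and microglia-like droplets 2 of 3 beside 23.8%. No member was at least 2-fold lower in any class, beside 1.54%, 5.68%, 4.79%, 6.02%, 15.6% and 14.7% of genes in cytoplasm-rich rods, nucleus-rich rods, cone-like, RPE-like, Müller-like and microglia-like droplets. Since the members were chosen on this contrast, the counts are read no further. Egr1 ranked 6th among the 12052 genes of nucleus-rich rods, 8th in cone-like, 17th in Müller-like droplets and 20th in cytoplasm-rich rods, but 321st in RPE-like droplets, where Ier2 ranked 30th and Btg2 46th, and 346th of 3661 genes in microglia-like droplets. The median gene with at least 50 UMIs in each library shifted by 0.18 on the log2 scale in cytoplasm-rich rods, -0.11 in RPE-like, -0.51 in Müller-like and -0.52 in microglia-like droplets, and relative to it the Egr1 ratio was still over 2-fold in every class.

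The members differed in how many of their UMIs were unspliced. Ier2 is annotated without an intron and so could hold no unspliced UMI, and for the other members the part of their introns was not tested. In light damage nucleus-rich rods, where unspliced UMIs made up 52.8% of all UMIs, Nr4a1 had 554 unspliced UMIs, 54.9% of its own (51.8 to 58.0). Control nucleus-rich rods held 3 unspliced Nr4a1 UMIs, a log2 ratio of 4.75 (3.20 to 7.03) over all UMIs of the class, and this ratio rested on the same droplets as the spliced one. Cone-like droplets held 5 and 86, a log2 ratio of 3.00 (1.72 to 4.66), and 44.1% of light damage Nr4a1 UMIs (37.0 to 51.4) were unspliced. RPE-like, Müller-like and microglia-like droplets each held 1 unspliced Nr4a1 UMI in light damage and none in control. Among these 6 classes intron-holding Nr4a1 RNA was thus found mostly in photoreceptors, and RPE-like droplets held 6.03% unspliced UMIs over all genes.

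Nr4a2 and Nr4a3, near 0 among spliced UMIs, had more unspliced ones. Nr4a2 had 8 and 29 unspliced UMIs in nucleus-rich rods, a log2 ratio of -0.92 (-2.08 to 0.42), and 82.9% of its light damage UMIs there were unspliced (66.4 to 93.4). Nr4a3 had 0 and 23, or 65.7% (47.8 to 80.9), and cone-like droplets held 0 and 10 unspliced UMIs of Nr4a2. Egr1, in contrast, had 8 unspliced beside 5043 other UMIs in light damage nucleus-rich rods, 0.158% (0.0684 to 0.312), and Btg2 32 beside 1861, or 1.69% (1.16 to 2.38). A UMI read from an exon does not show whether the molecule still held an intron. Of members with at least 20 unspliced UMIs in nucleus-rich rods, 2 of 4 (Nr4a1 and Btg2) were at least 2-fold higher, beside 7.03% of 13839 genes, and in cone-like droplets 1 of 1, beside 30.2%. In the other classes no member had 20 unspliced UMIs, beside 5.69% of genes called in cytoplasm-rich rods, 40.1% in RPE-like, 24.9% in Müller-like and 24.0% in microglia-like droplets. The Btg2 ratio in nucleus-rich rods rested on 2 control UMIs, with a log2 value of 1.22 (-0.75 to 4.33).

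**Figure D3:**
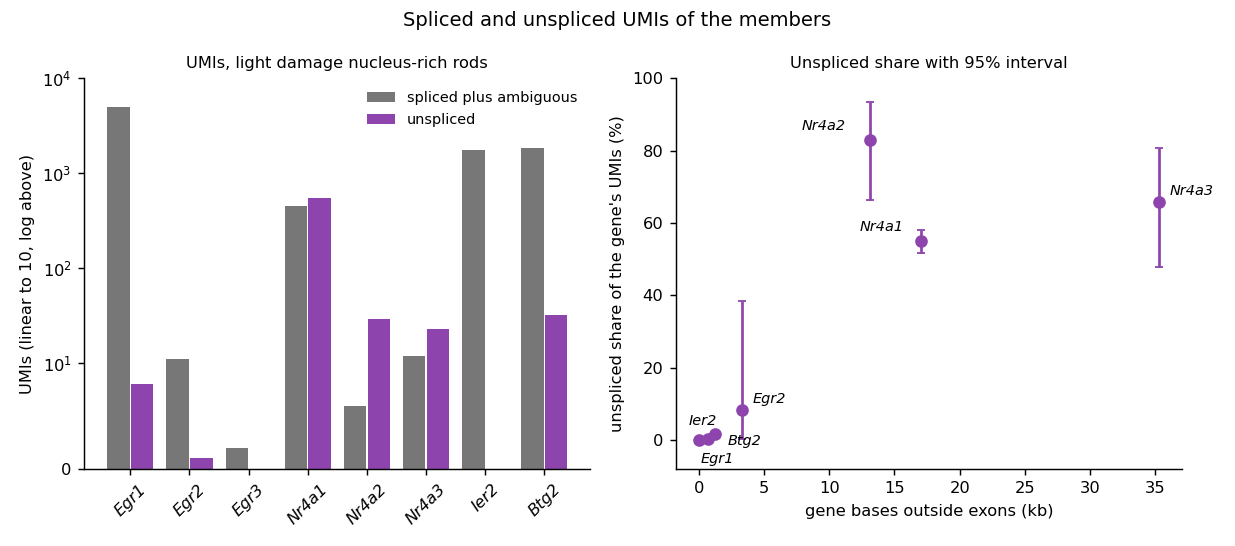
Left, spliced plus ambiguous (grey) and unspliced (purple) UMIs of each member summed over 3111 light damage nucleus-rich rods (axis linear to 10, logarithmic above); right, the unspliced share of each gene's UMIs in percent with its 95% binomial interval against the gene's bases outside exons in kb, for members with at least 10 UMIs. The Nr4a genes lie between 54.9% and 82.9%, and Egr1, Ier2 (annotated without an intron) and Btg2 at or under 1.69%. Egr2, with 1 unspliced beside 11 other UMIs, lies between them.

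Along the unspliced share of light damage rods, Egr1, Nr4a1, Ier2 and Btg2 had their highest levels between 30% and 50%, and the other members had too few UMIs per bin to be followed. In light damage rods Egr1 went from 93.0 CPM (82.4 to 104.5) in droplets under 5% unspliced and 121 CPM (107 to 136) at 5% to 10%, over 416 CPM (368 to 469) at 20% to 30%, to 614 CPM (581 to 649) at 30% to 40%. It was 425 CPM (405 to 447) at 40% to 50%, 536 CPM (509 to 563) at 50% to 60% and 220.1 CPM (180.4 to 266) above 70%. The highest value of Egr1 and of Ier2, 225 CPM (205 to 246), thus lay at 30% to 40%, and those of Nr4a1, 54.5 CPM (47.3 to 62.5), and Btg2, 207 CPM (192 to 222), at 40% to 50%, though the last 3 overlapped with the neighbouring bin. Control rods held Egr1 at 0 to 35.9 CPM in all bins. Ier2 in light damage came down to 57.6 CPM (38.3 to 83.2) and Btg2 to 72.0 CPM (50.1 to 100.1) above 70%, within the intervals of control rods at the same share (48.9 and 93.7 CPM). Median depth in light damage moved with the share too, from 3197 UMIs under 5% to 13674 in the 24 droplets at 10% to 20%, 8573 at 20% to 30%, 8440.5 at 30% to 40% and 3613 above 70%, and its part in the pattern was not tested.

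**Figure D4:**
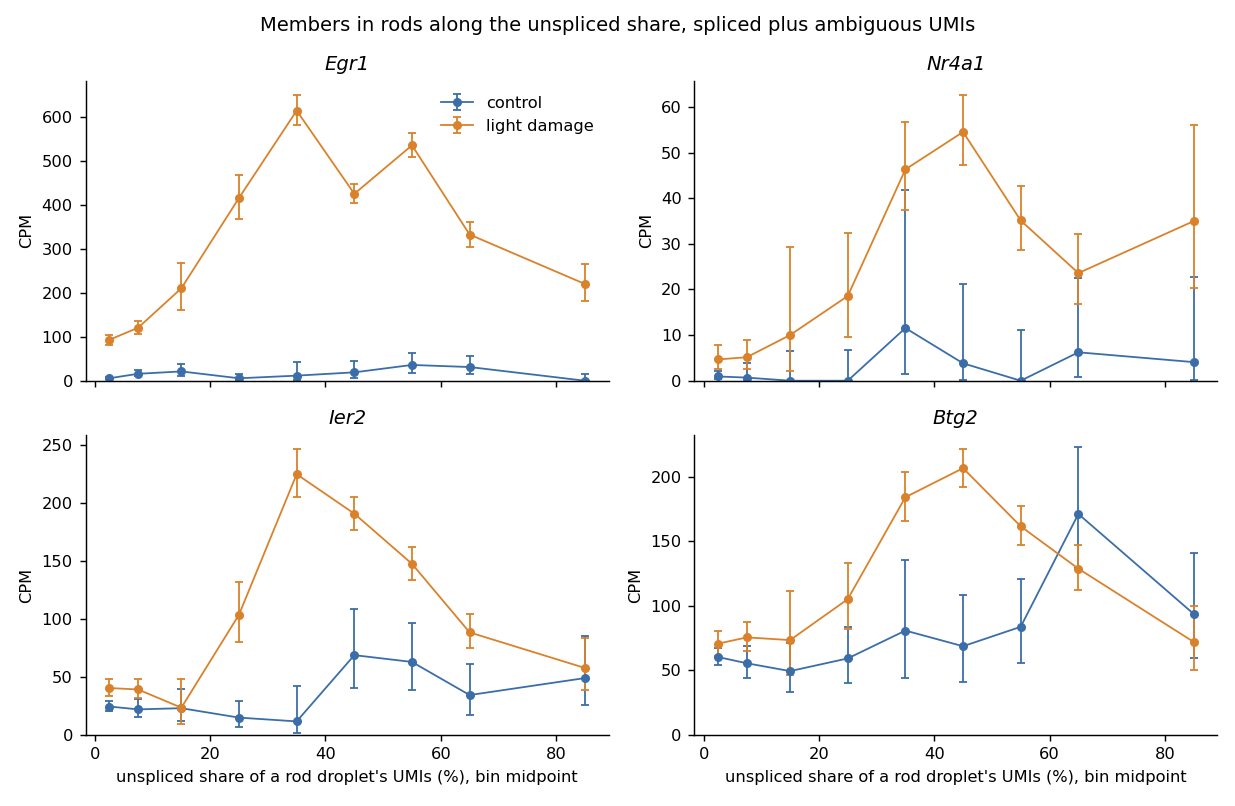
CPM of Egr1, Nr4a1, Ier2 and Btg2 (spliced plus ambiguous UMIs, linear axes that differ by gene) in rods binned by the unspliced share of a droplet's UMIs in percent, control in blue and light damage in orange, with 95% Poisson intervals; lines join bin midpoints. Egr1 in light damage peaks at 614 CPM between 30% and 40%, and Btg2 is no higher in light damage than in control above 60%.

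The light damage nucleus-rich rods fell mostly into 2 clusters that had been formed without the members and the other listed genes. The cluster led by Jun, Hexim1 and Ddit4 held 1190 of these droplets and had Egr1 at 607 CPM (586 to 628), Nr4a1 at 62.9 CPM (56.3 to 70.02), Ier2 at 242 CPM (229 to 256) and Btg2 at 214 CPM (202 to 227). The cluster led by Mir124a-1hg and Xist held 1902 and had 335, 22.5, 89.2 and 133 CPM. Leading genes were taken over the droplets of both libraries, and few light damage nucleus-rich rods held Xist and no Y-linked UMI. Egr1, Nr4a1, Ier2 and Btg2 were all higher in the first cluster, which is a description since clusters come from the same cells. Its droplets were deeper, with a median of 6972 against 5714 UMIs, and had 47.0% against 57.3% unspliced UMIs. In control, 480 nucleus-rich rods lay in the second cluster, with Egr1 at 18.0 CPM (11.1 to 27.5), and 33 in the first, with 61.0 CPM (16.6 to 156).

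The UMIs were spread unevenly over droplets. In light damage nucleus-rich rods 28.6% of droplets held an Egr1 UMI, the richest 10% of droplets held 78.8% of all Egr1 UMIs and the highest droplet 126. Ier2 and Btg2 were spread more widely, with 60.2% and 54.8% of their UMIs in the richest 10%. After each droplet was thinned to 500 UMIs to even out depth, an Egr1 UMI was expected in 12.6% of them (11.5 to 13.9) against 0.883% of control ones (0.286 to 2.04), for which the shares without thinning were 28.6% and 2.08%. Thinned shares of Egr1 were 4.07% against 0.389% in cytoplasm-rich rods, 14.5% against 0.574% in cone-like, 17.2% against 4.91% in RPE-like and 22.3% against 0 in Müller-like droplets. Their intervals overlapped in microglia-like droplets alone, with 22.6% (10.8 to 38.5) against 13.7% (2.09 to 48.4).

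**Figure D5:**
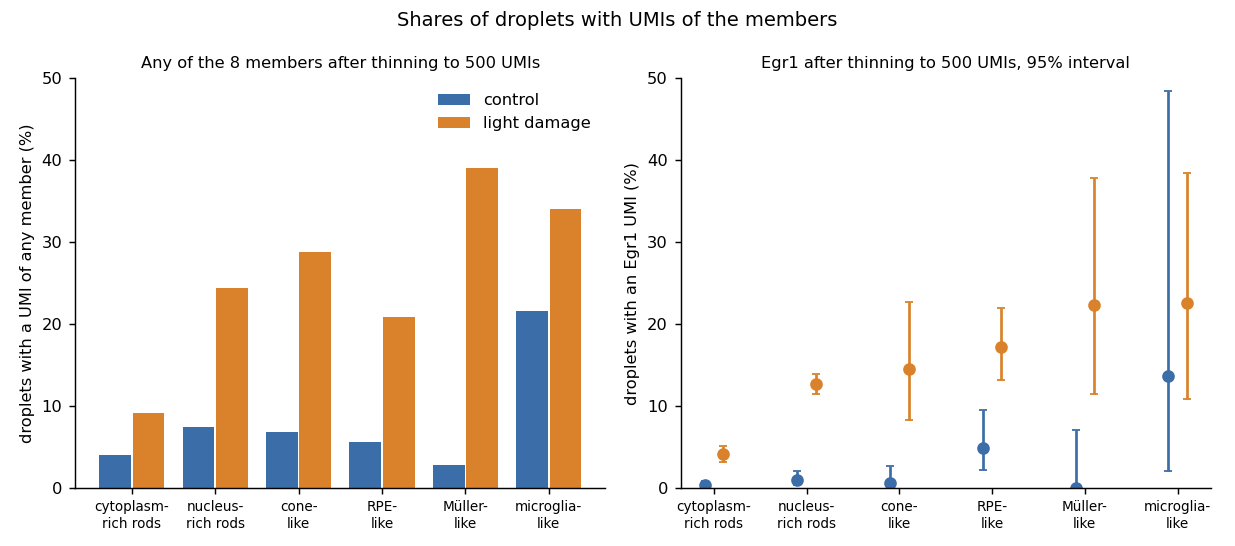
Left, expected share of droplets in percent with a UMI of any of the 8 members after thinning to 500 spliced plus ambiguous UMIs (bars, no interval drawn); right, the same for Egr1 alone with 95% binomial intervals, in 6 classes of the control (blue) and light damage (orange) library. The share with any member is 24.5% in light damage nucleus-rich rods against 7.45% in control, and 34.1% against 21.7% in microglia-like droplets.

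Pairs among Egr1, Nr4a1, Ier2 and Btg2 were compared within droplets of light damage nucleus-rich rods as a description, since the other members had expected UMIs in under 3 droplets each after thinning. After thinning, 26.6% of droplets with an Nr4a1 UMI held Egr1, against 12.4% of those without Nr4a1. With and without an Ier2 UMI the Egr1 shares were 21.8% and 11.99%, and with and without Btg2 15.4% and 12.4%. The shares of Ier2 with and without Egr1 were 11.2% and 5.81%. Without thinning, 324 of the 3111 droplets (10.4%) held at least 3 members, against 0 of 577 in control, which were shallower.

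Among the partners of these factors, the EGR corepressors were higher in several classes. Nab2 counts were 5 and 48 in cone-like droplets, with the log2 ratio at 2.39 (1.07 to 4.08), 2 and 42 in RPE-like droplets (2.61, 0.67 to 5.70) and 1 and 30 in Müller-like droplets (3.38, 0.79 to 8.73). Nab1 had a log2 ratio of 2.19 (1.28 to 3.24) in cone-like droplets, 1.09 (0.25 to 2.06) in nucleus-rich and 0.50 (0.00 to 0.99) in cytoplasm-rich rods. Its intervals included 0 in RPE-like (0.45, -0.09 to 1.02) and Müller-like droplets (1.32, -0.04 to 3.02). Nab2 was under the minimum in rods, with 0 and 2 UMIs in cytoplasm-rich and 1 and 14 in nucleus-rich ones. The 6 partners were Nab1, Nab2, Egr4 and the RXR receptors that pair with Nr4a1 and Nr4a2. Of them, 4 of 5 that passed the minimum were at least 2-fold higher in cone-like droplets, beside 19.0% of all genes counted. Counts were 1 of 3 in nucleus-rich rods (beside 8.93%), 1 of 4 in RPE-like (13.5%) and 2 of 2 in Müller-like droplets (24.3%). They were none of 3 in cytoplasm-rich rods (5.38%) and none of 2 in microglia-like droplets (23.8%). No partner was 2-fold lower in any class, beside 1.54% to 15.6% of all genes.

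The 8 AP-1 genes, the Fos and Jun families with Atf3, are immediate early genes themselves and were mostly higher too. At least 2-fold higher were 5 of 6 that passed in cytoplasm-rich rods, beside 5.38% of all genes counted. Nucleus-rich rods gave 7 of 7 (beside 8.93%), cone-like droplets 6 of 6 (19.0%) and RPE-like droplets 6 of 6 (13.5%). Müller-like droplets gave 7 of 7 (24.3%) and microglia-like droplets 4 of 6 (23.8%). In nucleus-rich rods Fos had a log2 ratio of 5.56 (4.58 to 6.77), Jun 4.52 (4.16 to 4.92) and Junb 4.16 (3.78 to 4.57). Fosl1, with 0 and 264 UMIs in Müller-like droplets, was like Egr3 a gene with most of its UMIs after light damage in that class.

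Of 24 other immediate early genes, 12 of 18 that passed were at least 2-fold higher in nucleus-rich rods, beside 8.93% of all genes counted. RPE-like droplets gave 10 of 17 (beside 13.5%), Müller-like droplets 16 of 17 (24.3%) and microglia-like droplets 9 of 13 (23.8%). Cytoplasm-rich rods gave 3 of 10 (5.38%) and cone-like droplets 4 of 15 (19.0%). Npas4, a neuronal activity gene, had 1 and 208 UMIs in nucleus-rich rods, with a log2 ratio of 4.69 (2.19 to 10.00), and Gadd45b 0 and 442 in RPE-like droplets. At least 2-fold lower was 1 of 17 in Müller-like droplets, Ccn2 (32 and 8 UMIs, -3.53, -4.86 to -2.38), beside 15.6% of all genes. In RPE-like droplets it was 1 of 17, Sgk1 (-1.78, -1.96 to -1.61), beside 6.02%. Neither count stood above its share. In cone-like droplets 3 of 15, Klf4, Ier5 and Gadd45b, were at least 2-fold lower, beside 4.79% of all genes. Their log2 ratios were -3.57 (-5.55 to -2.05), -1.502 (-2.35 to -0.69) and -1.01 (-1.78 to -0.25). Genes of MAPK feedback, the phosphatases and Sprouty proteins that dampen MAPK signals, were set beside the shares of all genes just given. At least 2-fold higher were 4 of 6 in nucleus-rich rods, 8 of 10 in Müller-like droplets and 2 of 5 in cone-like droplets. Cytoplasm-rich rods gave 1 of 5 and microglia-like droplets 0 of 5. In RPE-like droplets 3 of 10 were higher and 2 lower (Dusp4 and Spry1, the latter with -2.30, -3.05 to -1.56), beside 6.02% of all genes lower. In cone-like droplets 1 of 5, Dusp1, was lower, beside 4.79%, 236 UMIs standing against 30, with a log2 ratio of -3.85 (-4.45 to -3.30).

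Factors that act before the immediate early genes were also counted. Of 13 genes for SRF partners, CREB and ERK components, 2 were at least 2-fold higher in nucleus-rich rods (Elk3 and Mrtfa), beside 8.93% of all genes. The median log2 ratio of the 13 there was 0.43 beside 0.02 over all genes counted. Counts were 1 of 12 in cytoplasm-rich rods (beside 5.38%), 5 of 11 in cone-like (19.0%) and 2 of 10 in RPE-like droplets (13.5%). Müller-like droplets gave 2 of 7 (24.3%) and microglia-like droplets 1 of 4 (23.8%). In each of the last 2 classes 1 was lower, beside 15.6% and 14.7% of all genes. Apart from cone-like droplets, these counts stood near the shares of all genes. Heat shock genes, which respond to stress of proteins, gave 1 of 9 in nucleus-rich rods (Dnajb1, 1.49, 1.01 to 2.002) with a median of 0.01. They gave 0 of 9 in cytoplasm-rich rods and 2 of 9 with 1 lower in cone-like droplets (4.79% lower over all genes). In these 3 classes the counts of higher genes stood near the shares of all genes, 8.93%, 5.38% and 19.0%. RPE-like droplets gave 0 of 9 with 2 lower (13.5% higher and 6.02% lower over all genes), and Müller-like and microglia-like droplets 4 of 6 each (24.3% and 23.8%). Hspa1a and Hspa1b, both inducible chaperones, had log2 ratios of -0.07 (-0.41 to 0.28) and -0.08 (-0.39 to 0.24) in nucleus-rich rods.

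The genes whose levels were most like those of a member over the 12 combinations of class and library were found by Pearson's r of log2(CPM + 10), as a description over groups that share libraries and depth. For Egr1 these were Eif5 (0.94), Flii (0.93) and the Y-linked Ddx3y (0.90), and the part of the pools' sex in this was not tested. For Nr4a1 they were Ckap2 (0.93), 9330159F19Rik (0.88) and Fyttd1 (0.87), for Ier2 Taf1d (0.95), Slc38a2 (0.93) and Jun (0.92), and for Btg2 Map7d1 (0.95), Zfp160 (0.92) and Med11 (0.91).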

How the data were processed

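One 10x Genomics 3′ v3.1 library per condition was sequenced, and per the labels Cell Ranger 7.0.1, salmon 1.10.1 and alevin-fry 0.8.1 were used with mm10. The authors deposited raw counts, whole UMIs per barcode and gene in spliced, unspliced and ambiguous blocks, without normalization or removal of empty droplets. Genes were named for 32158 of 32285 IDs. Droplets were kept from the inflection of the barcode rank curve (1464 control and 1614 light damage UMIs) and under 10% mitochondrial UMIs. The top 0.8% of doublet scores per 1000 droplets were left out (114 and 276), since the automatic threshold called 1 and 0. Scanpy 1.11.5 clustered log-scaled counts (2000 variable genes, 50 components, 15 neighbours, Leiden resolution 1) without the listed and sex-linked genes. Clusters were named from marker scores whose limits were set after scores were seen, 318 control and 376 light damage droplets stayed unnamed, and 94 and 57 rods between 20% and 30% unspliced were kept apart, so names may differ from the study's.

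Spliced plus ambiguous UMIs were summed per class. CPM carry Poisson, shares binomial and ratios conditional binomial intervals at 95%, and a count of 0 is set to 3 UMIs. Only the intervals of the log2 ratios and the 2-fold rule were tried on simulated counts. These were Poisson draws per class without spread between droplets or mice, so that filtering, clustering, naming and thinning were not covered. Alternatives are those in the closing section. Members and lists were chosen with earlier results of these data known. Named are all members, genes of the lists and the 3 most alike genes of members with at least 100 UMIs; the examples from lists were picked knowing their values. Python 3.11.15 was used with pandas 2.3.3, scipy 1.17.1 and numpy 2.4.6. Other steps, such as decontamination, were not repeated here.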

Additional observations from a re-analysis of the deposited data

How the results depend on the processing

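The 23 log2 ratios of members that passed the minimum kept their direction when droplets needed 1000 UMIs, when mitochondrial UMIs were held under 5%, and with doublets kept, unspliced UMIs included, naming by a droplet's own markers, a rod split at 25%, subtracted free RNA, centring on the median gene, a reduced total, leaving out the droplet richest in the member, and Leiden resolution 2. Of 19 ratios of at least 2-fold, 18 or 19 stayed so under each of these, though sizes moved. The subtraction of free RNA used estimated shares that in small classes rested on few UMIs. Ier2 in RPE-like droplets, at 4.50 from 1 control UMI, was 2.80 with 1000 UMIs needed, 2.79 at Leiden resolution 2, 2.80 without the richest droplet, 3.77 with doublets kept and 2.29 with free RNA subtracted. Btg2 in RPE-like droplets, at 4.04, ranged from 2.30 with doublets kept to 5.80 with free RNA subtracted. Btg2 in cone-like droplets went under 2-fold with unspliced UMIs included (0.84), own markers (0.89), centring (0.9991) and the reduced total (0.92), and the count there was 3 of 4. In microglia-like droplets the count of 2 became 1 with the 5% limit and without the richest droplet, where Ier2 had bounds of 0.51 and 0.55 because its only control UMI was gone. With unspliced UMIs alone the counts became 0 in cytoplasm-rich rods, RPE-like, Müller-like and microglia-like droplets and 1 in cone-like droplets, since few members hold 20 unspliced UMIs. With droplets holding Y-linked and no Xist UMIs alone, an alternative chosen after seeing the data, the count became 1 in cytoplasm-rich rods, since Nr4a1 no longer passed the minimum, and 2 in nucleus-rich rods, with Ier2 at 0.27. Btg2 in nucleus-rich rods was then at -0.12. In Müller-like droplets the bounds at Leiden resolution 2 were 4.34 for Egr1 and 1.13 for Egr3. No paired analysis was possible because each condition has 1 library. The control library held 12 microglia-like and 50 Müller-like droplets, with 32726 and 131923 spliced plus ambiguous UMIs in all.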

Other observations

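Droplets outside the 6 classes held the members as well. In 57 light damage rods between 20% and 30% unspliced UMIs, Egr1 had 269 UMIs, 416 CPM (368 to 469), against 3 UMIs in 94 control rods, a log2 ratio of 6.23 (4.66 to 8.51). These light damage rods were deeper, with a median of 8573 against 2248.5 UMIs. Erythrocyte markers took 1.02% of their spliced plus ambiguous UMIs against 0.000555% in control, and the part of mixed droplets was not tested. Bipolar-like droplets, 26 in control and 18 in light damage, held Egr1 with 1 and 12 UMIs and Btg2 with 11 and 70, the latter 158 CPM (79.0 to 283) against 353 CPM (275 to 446) with a log2 ratio of 1.16 (0.23 to 2.23). Nr4a1 had 6 spliced plus ambiguous and 11 unspliced UMIs in the light damage bipolar-like droplets, and Nr4a2 6 unspliced UMIs.

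Barcodes under 50 UMIs held Ier2 at 30.2 CPM (21.4 to 41.4) in control and 173 CPM (157 to 190.04) in light damage, Btg2 at 44.5 CPM (33.6 to 57.7) and 78.3 CPM (67.9 to 90.0), and Nr4a1 at 1.59 CPM (0.19 to 5.74) and 28.2 CPM (22.1 to 35.5). Free RNA thus carried the same order of libraries as the rods for these 3 genes.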
